A study of Mus musculus with 6 samples.

Results

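Genes named for the eukaryotic initiation factor (Eif) family of translation factors were examined in stimulated CD4+ T cells deprived of arginine. Members were all genes whose symbol began with Eif and a digit and stood alone on a probe set, the group of probes that measures 1 transcript, with 1 Eif2ak kinase left out by the same rule. This gave 50 genes of 22180 on the array. The brightest probe set by its mean over the arrays stood for its gene. RefSeq lists 48 members as protein-coding, whereas Eif1-ps3 is a pseudogene and Eif2c5 a long non-coding RNA whose old name comes from the Argonaute genes. These 48 include genes that are not themselves translation factors, such as the Eif2ak kinases and the Eif4ebp repressors. The family is described by factor number (Eif1 to Eif6), with the kinases (Eif2ak) and the repressors that bind Eif4e (Eif4ebp) apart.

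Purified CD4+ T cells of OT II transgenic mice, which carry a T cell receptor for an ovalbumin peptide, were cultured for 72 hours with antigen-presenting cells and 0.1 uM of that peptide. The low arginine group (3 arrays) had medium with 1% of the normal arginine (12 uM). The control group (3 arrays) had complete medium, and dialyzed serum was used for both. The mice were 12 to 16 weeks old and the study description names 6 of them, without saying which mice gave which array. The CD4+ cells had been enriched by removing B, myeloid, NK and CD8+ cells, and were purified again from the co-culture before RNA extraction. The labels call the arrays biological replicates, and p-values measure the spread between them. From the RNA, 1-colour whole-transcript arrays gave log2 levels relative to the rest of each array. In bulk RNA of this kind, fewer cells of a type and less RNA per cell cannot be told apart.

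Initiation factors bring the initiator tRNA and the small ribosomal subunit to the start codon of an mRNA. Eif2 carries the tRNA and must be recharged with GTP by Eif2b, Eif3 is the scaffold on the small subunit, Eif4 proteins bind the cap and unwind the leader, and Eif5, Eif5b and Eif6 act around the joining of the large subunit. Amino acid shortage is known to slow initiation through phosphorylation of the alpha subunit of Eif2 by the Eif2ak kinases and through release of the Eif4ebp repressors when mTORC1 is inactive. Both are changes of proteins that RNA levels do not show.

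The CD4 T cell markers Cd3d, Cd3e, Cd3g, Cd4, Cd5 and Thy1 lay between 7.76 and 10.9 on the log2 scale in every array, and 0 of 6 passed limma's test (1 lower at an unadjusted p below 0.05). Genes with a mean over all arrays up to 2.48, the dimmest share of 0.333, were left out as dim. The measured B cell markers, summed over 4 genes on the log2 scale, gave 10.3 to 10.9 in low arginine and 10.5 to 11.2 in control, with Ms4a1 under the dim limit. For 6 myeloid markers the sums were 17.5 to 18.1 and 17.0 to 17.7, with Adgre1 and Lyz2 under the limit. Those of 4 CD8 T and NK cell markers were 13.5 to 13.7 and 13.7 to 15.8, with Ncr1 and Klrb1c under the limit. Cd8b1, at 6.06 to 6.47 in low arginine and 6.52 to 7.15 in control, was lower in every low arginine array (change -0.66, limma adjusted p = 0.0632, unadjusted p below 0.05). Cd8a changed by -0.61 with overlapping groups. Of 3 MHC class II genes (sums 9.66 to 9.96 and 12.1 to 13.2) H2-Ab1 fell (change -3.06), H2-Eb1 changed by 0.02 and H2-Aa was dim. Of 3 plasma cell markers (13.4 to 13.9 and 14.2 to 14.9) Xbp1, which T cells also express, fell, Sdc1 changed by 0.03 and Jchain was dim. All 7 measured mitosis markers fell, with summed levels of 36.6 to 47.2 in low arginine and 56.9 to 57.3 in control, low arginine replicate 1 being the highest of its group. The part of these differences in the results below was not tested.

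Of the 50 members, 49 passed the filter on dim genes and were tested in one limma fit over 14787 genes. At a Benjamini-Hochberg adjusted p below 0.05, 2 members rose in low arginine, Eif2b3 and Eif3c, and 3 fell, Eif4e3, Eif2a and Eif1b. Among all genes tested, 5.19% rose and 6.98% fell (12.2% in either direction), and the members' shares of 4.08% and 6.12% lay near these. The median log2 change was 0.03 over the members and 0.01 over all genes tested. Its sign turned when the arrays were centred on their median (-0.01) or their 75th percentile (-0.03), and without control replicate 3 (-0.05). At an unadjusted p below 0.05 there were 6 members higher (12.2%) and 8 lower (16.3%), near the 13.3% and 13.9% of all genes tested. Every low arginine array lay above every control array for 9 members and below it for 9, against 16.0% and 16.2% of all genes tested. The groups overlapped for the other 31, while 32.2% of all genes tested had groups that did not overlap. The only dim member was Eif4e1b, a cap-binding protein known from oocytes, at 2.45, 2.52 and 2.29 in low arginine and 2.26, 2.39 and 2.16 in control.

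**Figure D1:**
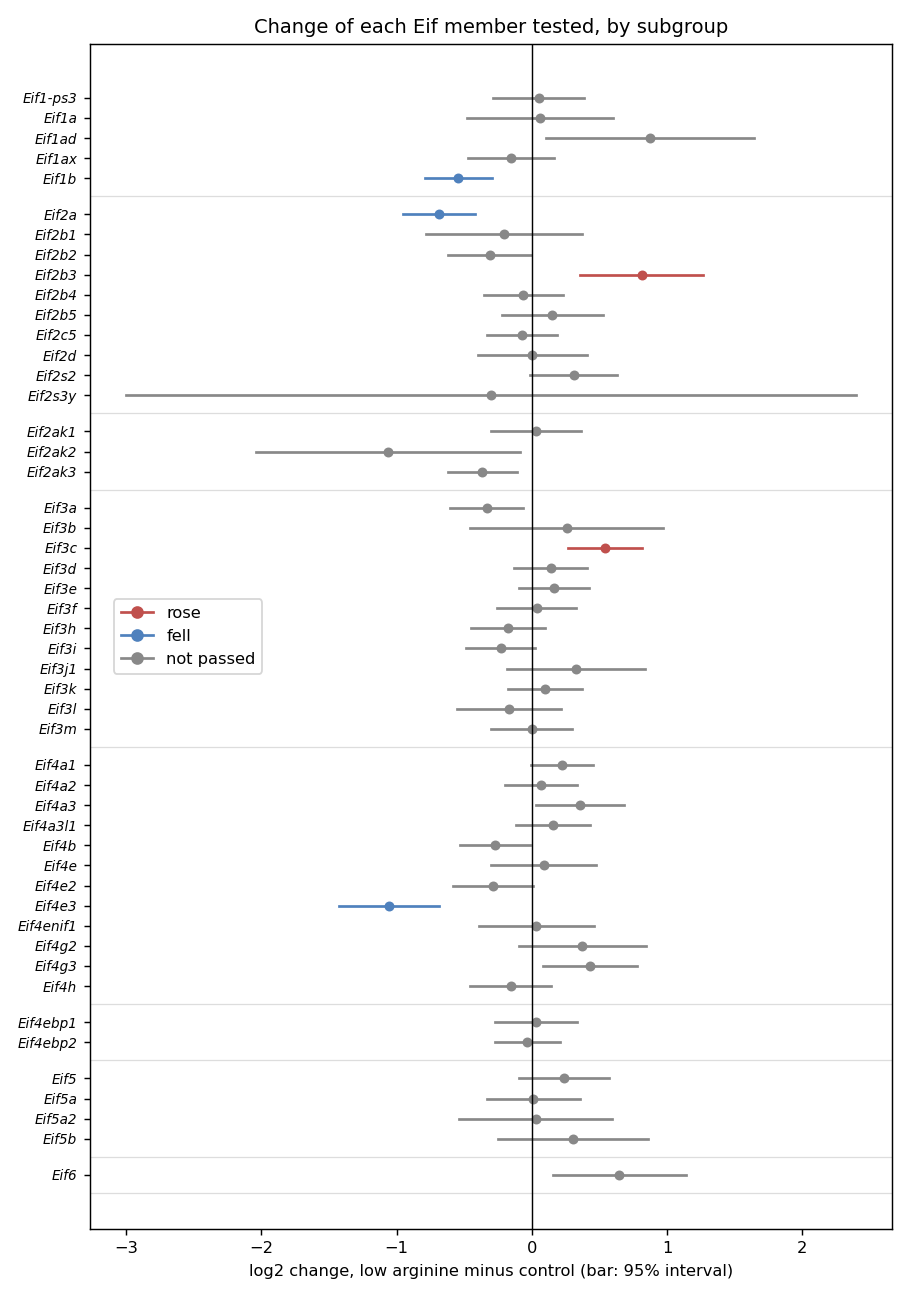
Log2 change in low arginine minus control (horizontal axis) of the 49 members tested, by subgroup from top to bottom, with bars for limma's 95% interval. Eif2b3 and Eif3c lie to the right of 0 and Eif4e3, Eif2a and Eif1b to the left, while the grey members did not pass and Eif2s3y has the widest bar.

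The largest change among the called members was in Eif4e3, a relative of the cap-binding protein Eif4e that also binds the cap. Its level was 6.12, 6.10 and 5.98 in low arginine replicates 1, 2 and 3, against 6.80, 7.38 and 7.20 in control replicates 1, 2 and 3. All low arginine arrays were lower than all controls, with control replicate 1 the nearest to them. The means were 6.07 ± 0.08 in low arginine and 7.12 ± 0.30 in control (SD, n = 3 each), a log2 change of -1.06 (SE 0.16, limma adjusted p = 0.00853), or 2.08-fold lower in low arginine. It passed in all 15 alternative settings, with a highest adjusted p of 0.0454.

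Eif2a, which is no subunit of Eif2 but a separate protein that can deliver initiator tRNA, was at 7.03, 6.91 and 6.86 in low arginine and 7.62, 7.75 and 7.49 in control. The groups were well apart, and Eif2a fell by 0.68 on the log2 scale (SE 0.11, limma adjusted p = 0.0114), a 1.61-fold lower level. Eif1b, a close relative of the start codon selection factor Eif1, was at 6.71, 6.68 and 6.60 in low arginine, against 7.28, 7.23 and 7.10 in control. It fell by 0.54 (SE 0.11, limma adjusted p = 0.0179), or 1.46-fold. The call of Eif2a ended without low arginine replicate 2 or 3 or control replicate 2 (adjusted p = 0.0552 to 0.0587), and that of Eif1b without any single low arginine array or control replicate 2 (0.0505 to 0.0814).

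Eif2b3, the gamma subunit of the exchange factor that recharges Eif2, was at 5.91, 5.82 and 5.89 in low arginine and 5.53, 4.88 and 4.77 in control. The low arginine arrays lay close together and above every control, of which replicate 1 was the highest. The change was 0.81 (SE 0.20, limma adjusted p = 0.0358), 1.76-fold higher, and 1.05 without control replicate 1. Eif3c, a core subunit of the Eif3 scaffold, was at 10.16, 10.16 and 10.03 in low arginine, against 9.71, 9.59 and 9.43 in control, all low arginine arrays being higher. Its rise was 0.54 (SE 0.12, limma adjusted p = 0.0254), 1.46-fold. Both calls ended when any array but control replicate 1 was left out (Eif2b3 adjusted p = 0.0835 to 0.135, Eif3c 0.0591 to 0.105), and that of Eif3c also with arrays centred on the 75th percentile (0.0529).

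**Figure D2:**
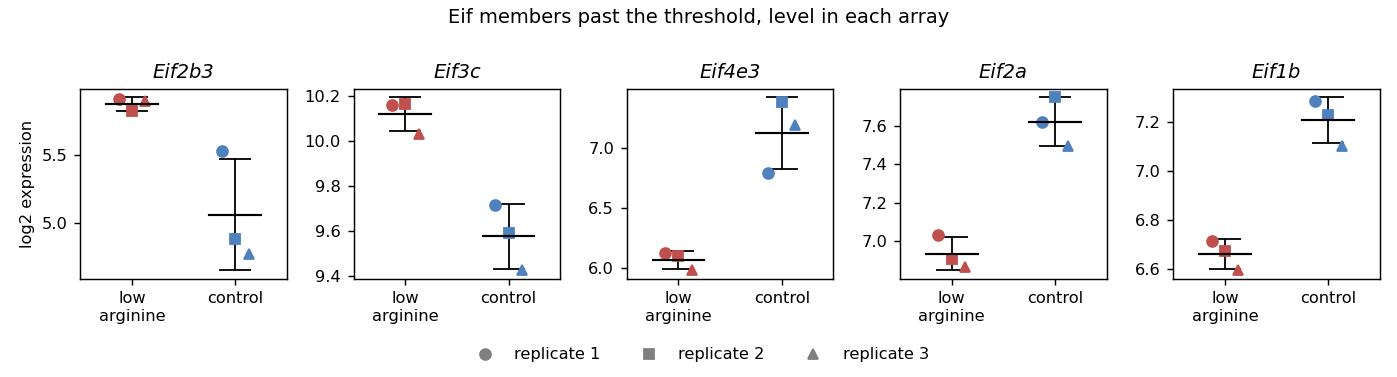
Log2 expression (vertical axis, a separate range for each gene) in the 3 low arginine arrays and the 3 control arrays of the members that passed, with the marker shape giving the replicate number and black lines the mean ± SD. The groups do not overlap for any of the 5, and control replicate 1 is the control nearest to low arginine for Eif2b3, Eif3c and Eif4e3.

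Promoter windows of RefSeq (GRCm38.p6, 250 bases before to 50 after an annotated start) were at hand for 39 members. Those of Eif1b, Eif2a and Eif3c are shown because these are the called members with a window, and that of Eif4e because the textbook Myc target among the members has the motif searched and did not pass here. Capitals mark the E-box CACGTG, which reads the same on both strands and is the site class bound by Myc and related factors.
Eif1b, chr9:120492356-120492655, plus strand: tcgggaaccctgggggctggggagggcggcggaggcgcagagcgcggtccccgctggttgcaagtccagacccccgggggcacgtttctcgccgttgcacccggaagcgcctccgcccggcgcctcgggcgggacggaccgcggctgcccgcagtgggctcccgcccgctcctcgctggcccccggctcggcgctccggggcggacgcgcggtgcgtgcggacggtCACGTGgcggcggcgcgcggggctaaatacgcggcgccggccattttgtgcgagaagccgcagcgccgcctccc
Eif2a, chr3:58525571-58525870, plus strand: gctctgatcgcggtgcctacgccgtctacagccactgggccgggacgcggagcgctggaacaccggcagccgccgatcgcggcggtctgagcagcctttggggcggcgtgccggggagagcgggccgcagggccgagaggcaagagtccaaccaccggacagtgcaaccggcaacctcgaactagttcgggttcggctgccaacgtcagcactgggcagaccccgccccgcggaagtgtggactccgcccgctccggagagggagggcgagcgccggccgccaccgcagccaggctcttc
Eif3c, chr7:126566317-126566616, minus strand: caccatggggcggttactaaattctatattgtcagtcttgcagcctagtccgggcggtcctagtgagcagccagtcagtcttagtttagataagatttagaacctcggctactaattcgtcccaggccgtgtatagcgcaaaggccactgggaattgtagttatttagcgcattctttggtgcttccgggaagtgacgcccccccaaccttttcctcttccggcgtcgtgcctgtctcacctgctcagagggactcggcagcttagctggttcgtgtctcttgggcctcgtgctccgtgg
Eif4e, chr3:138527018-138527317, plus strand: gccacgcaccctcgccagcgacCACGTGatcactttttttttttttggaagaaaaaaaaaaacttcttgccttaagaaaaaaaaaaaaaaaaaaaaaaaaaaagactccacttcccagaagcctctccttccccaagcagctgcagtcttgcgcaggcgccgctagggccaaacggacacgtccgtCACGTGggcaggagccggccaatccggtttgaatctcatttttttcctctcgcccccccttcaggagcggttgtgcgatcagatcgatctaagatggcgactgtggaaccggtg
The Eif1b window holds 1 E-box, starting 24 bases before the annotated start, and the Eif4e window, the one of its 2 that has any, holds 2. No CACGTG stands in the windows of Eif2a and Eif3c. Of the 39 members 9 had the E-box in a window (23.1%), namely Eif1b, Eif3a, Eif3f, Eif3k, Eif4a1, Eif4e, Eif4h, Eif5a and Eif5a2, against 8.09% of 27025 genes with a window. Of these 9 members 1 passed the test, Eif1b, beside 12.2% of all genes tested in either direction. The element TGATGNAA of the amino acid response, on either strand, was in the windows of 0 of 39 members and of 4.51% of all genes. A start with a C followed by at least 4 C or T, the mark of mRNAs with a terminal oligopyrimidine tract, was found for Eif3f and Eif2c5 (5.13%) and for 3.01% of all genes. Annotated starts can be off by some bases, which bears on this last count. For each motif the share of all genes covers every gene with a window, whether tested here or not. A gene counted when any of its windows held the motif, so the members and this background are not matched.

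Among the Eif1 genes, 1 of 5 passed, Eif1b. Eif1a and Eif1ax, the autosomal and X-linked genes of the factor that helps the small subunit scan for the start codon, changed by 0.06 (95% interval -0.48 to 0.60) and -0.15 (-0.47 to 0.16). Eif1ad, which shares a domain with them, was at 6.65, 6.73 and 6.67 in low arginine and 6.64, 5.65 and 5.14 in control. Control replicate 1 lay just under the low arginine arrays and the other controls far lower, so that the change of 0.87 had a wide interval (0.10 to 1.64, limma adjusted p = 0.136). The pseudogene Eif1-ps3 changed by 0.05 (-0.29 to 0.39). Eif1 itself was not analysed here.

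Of the 10 Eif2 genes, 1 rose (Eif2b3) and 1 fell (Eif2a). Eif2s2, the beta subunit of Eif2, was at 6.29, 6.21 and 6.30 in low arginine and 6.15, 6.04 and 5.69 in control, higher in every low arginine array, but its change of 0.31 did not pass (limma adjusted p = 0.2). Eif2d, which can also bring tRNA to the start codon, changed by 0.00 (95% interval -0.40 to 0.41), and Eif2c5 by -0.07 at levels near the dim limit. Eif2s1, the alpha subunit that the kinases phosphorylate, was not analysed here. Eif2s3y, the Y-linked gene of the gamma subunit, was at 5.89, 4.96 and 2.44 in low arginine replicates 1, 2 and 3 and at 6.85, 4.75 and 2.59 in the controls of the same numbers. Its levels were high in both arrays numbered 1, middling in both numbered 2 and about at the dim limit in both numbered 3. The difference between groups was -0.30 with an interval from -3.00 to 2.40 when the arrays were taken as unpaired.

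The exchange factor Eif2b has 5 subunits, and 1 of 5 passed. Eif2b5, the catalytic subunit, was at 5.91, 5.85 and 5.85 in low arginine and 6.03, 5.71 and 5.41 in control, with overlapping groups and a change of 0.15 (95% interval -0.22 to 0.53). The regulatory subunits Eif2b1, Eif2b2 and Eif2b4 changed by -0.21, -0.31 and -0.06, and of these Eif2b2 was lower in every low arginine array (limma adjusted p = 0.178). Whether Eif2b3 moved apart from the rest was examined on the difference, within each array, between Eif2b3 and the mean of the other 4 subunits. This was 0.37, 0.39 and 0.43 in low arginine, against -0.37, -0.61 and -0.59 in control. The change in the difference was 0.92, and the exact two-sided permutation test gave p = 0.1 (n = 3 each, adjusted p = 0.1 over 3 such pairs), the smallest that 3 against 3 arrays allow. The pairs were picked after the values were seen, so their p-values give no support of their own.

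None of the 3 kinases of Eif2 examined here passed limma's test, and 2 were lower at an unadjusted p below 0.05, as were 13.9% of all genes tested. A further kinase of Eif2 was left out by the rule for members. Eif2ak3, the sensor of stress in the endoplasmic reticulum, was at 5.70, 5.54 and 5.73 in low arginine and 6.10, 6.01 and 5.96 in control. Every low arginine array was lower, and the change of -0.37 had an adjusted p of 0.0693 by limma (0.0451 after quantile normalization, 0.00855 with array weights). Eif2ak2, the sensor of double-stranded RNA that interferon induces, was at 3.11, 2.61 and 2.54 in low arginine and 4.84, 3.60 and 3.01 in control. The groups overlapped, low arginine levels were near the dim limit, and the change was -1.06 (95% interval -2.04 to -0.09, limma adjusted p = 0.149, 0.0119 with array weights). Eif2ak1, the heme-regulated kinase, changed by 0.03 (-0.30 to 0.36).

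Of 12 Eif3 subunits 1 rose, Eif3c, and 0 fell, with a median change of 0.06. Eif3a, the largest scaffold subunit, was at 9.04, 9.20 and 9.15 in low arginine and 9.48, 9.60 and 9.32 in control. It was lower in every low arginine array without passing in the main limma fit (change -0.33, limma adjusted p = 0.109, 0.00576 with array weights). Eif3c and Eif3a, neighbours in the core of the complex, thus had changes of opposite sign. Within arrays Eif3c minus Eif3a was 1.12, 0.97 and 0.88 in low arginine, against 0.24, -0.01 and 0.11 in control (difference 0.88, exact two-sided permutation p = 0.1, the smallest possible with n = 3 each). Since Eif3c was higher and Eif3a lower in every low arginine array, this p-value was fixed in advance and adds no support. Eif3b, which holds the core to the rest, was at 8.48, 8.54 and 8.49 in low arginine and 9.01, 8.10 and 7.64 in control. Its controls lay on both sides of the low arginine arrays and the interval was wide (change 0.26, -0.45 to 0.97).

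No other Eif3 subunit passed. Eif3d, which can bind the cap of some mRNAs, Eif3e, Eif3f, Eif3j1 and Eif3k changed by 0.14, 0.16, 0.03, 0.32 and 0.09, and Eif3h, Eif3i, Eif3l and Eif3m by -0.18, -0.23, -0.17 and 0.00. Their limma adjusted p-values lay between 0.223 and 0.995, and Eif3h and Eif3i passed with array weights (0.0422 and 0.0351). Without Eif3j1 and Eif3l, whose controls were spread, their 95% intervals stayed within -0.48 and 0.42. Eif3e was higher in every low arginine array and Eif3i lower. A second, dimmer probe set of Eif3d changed by 0.11. Eif3g was not analysed here.

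In the Eif4 group 12 of 13 members were tested, 1 fell (Eif4e3) and 0 rose. Eif4e, the cap-binding protein that limits cap-dependent initiation, was at 8.29, 8.49 and 8.30 in low arginine and 8.62, 8.13 and 8.06 in control. Its groups overlapped and the change was 0.09 (95% interval -0.30 to 0.48, limma adjusted p = 0.797). Eif4e3 minus Eif4e was -2.16, -2.39 and -2.31 in low arginine, against -1.83, -0.75 and -0.86 in control (difference -1.14, exact two-sided permutation p = 0.1, the smallest possible with n = 3 each). This pair too was picked with the values in view, so its p-value adds no support. The levels of different probe sets give no ratio of the 2 RNAs. Eif4e2, a cap-binding repressor, was at 6.44, 6.49 and 6.28 in low arginine and 6.89, 6.58 and 6.61 in control, lower in each low arginine array without passing (change -0.29, limma adjusted p = 0.192).

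Eif4a1, the main helicase of initiation, was at 12.29, 12.37 and 12.38 in low arginine and 12.06, 12.14 and 12.16 in control. All low arginine arrays were higher, but the change of 0.22 did not pass (limma adjusted p = 0.194). Its levels lay near 12.41, the highest value on any array, and its dimmer probe set had the opposite sign (-0.25). Eif4a2, a second helicase, changed by 0.07 on its brightest probe set and by 0.24 and 0.47 on the other 2. A pair of probe sets shared by Eif4a2 and the small nucleolar RNAs Snord2 and Snora81 changed by 0.43 and 0.57. A probe set shared with Rfc4 changed by -0.49, and the part of either gene in it cannot be told apart. The size of the change for Eif4a2 therefore depends on the probe set, and only the probe set shared with Rfc4 was negative. Eif4a3, a helicase of the exon junction complex, changed by 0.36 (limma adjusted p = 0.146, 0.0253 with array weights). A brighter probe set shared with its relative Eif4a3l1 and Gm5576 changed by 0.08. Eif4a3l1 alone changed by 0.16.

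The helicase cofactors Eif4b and Eif4h changed by -0.27 and -0.16. Eif4b was at 9.03, 9.14 and 9.10 in low arginine and 9.27, 9.51 and 9.30 in control, lower throughout. Its limma adjusted p was 0.166, and 0.0074 with array weights. Of the scaffolds, Eif4g3 was at 7.27, 7.40 and 7.51 in low arginine and 7.25, 6.81 and 6.84 in control, higher in each low arginine array by a small margin over control replicate 1 (change 0.43, limma adjusted p = 0.108). Eif4g2, a scaffold without the cap-binding part, was at 10.12, 10.09 and 10.14, against 10.23, 9.59 and 9.42 in control, where replicate 1 exceeded the low arginine arrays (change 0.37, limma adjusted p = 0.293). Eif4enif1, which carries Eif4e into the nucleus, changed by 0.03. Eif4g1 was not analysed here.

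The repressors that bind Eif4e when mTORC1 is inactive showed no change past the test, with 0 of 2 also at an unadjusted p below 0.05. Eif4ebp1, known as a target of the amino acid response factor Atf4, was at 8.22, 8.31 and 8.37 in low arginine and 8.12, 8.50 and 8.19 in control. The groups overlapped, and the change was 0.03 with a 95% interval from -0.28 to 0.34 (limma adjusted p = 0.924). Eif4ebp2, the other repressor, was at 7.46, 7.49 and 7.61 in low arginine and 7.62, 7.52 and 7.52 in control, a change of -0.03 (-0.27 to 0.21). The intervals of both leave room for changes of up to 0.34 in size.

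None of the 4 Eif5 genes passed limma's test, and 0 reached an unadjusted p below 0.05. All had positive changes, of which those of Eif5a and Eif5a2 turned negative with centring on the median or the 75th percentile, and that of Eif5a2 also after quantile normalization. Eif5a, the factor that needs the modified lysine hypusine and helps ribosomes along difficult sequences, was at 7.93, 7.84 and 7.84 in low arginine and 8.14, 7.83 and 7.60 in control, a change of 0.01 (95% interval -0.33 to 0.36). Hypusine is made from spermidine, a polyamine derived from arginine. Eif5, which triggers GTP hydrolysis by Eif2, was at 9.07, 8.96 and 9.04 in low arginine and 9.02, 8.83 and 8.52 in control (change 0.24, -0.10 to 0.57). Eif5b, the GTPase of subunit joining, was at 6.65, 6.81 and 6.62 in low arginine and 6.96, 6.24 and 5.96 in control (change 0.31, -0.25 to 0.86). Eif5a2, a close relative of Eif5a, changed by 0.03. Eif6, which keeps the large subunit from joining early, was at 7.56, 7.64 and 7.44 in low arginine and 7.42, 6.61 and 6.68 in control. Every low arginine array was higher, by a small margin over control replicate 1, and the change of 0.65 did not pass (0.15 to 1.14, limma adjusted p = 0.0933).

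Much of this rests on the spread of the controls. The SD of the control group exceeded that of low arginine for 40 of 49 members (81.6%), and for 66.1% of all genes tested. The median SD of the members was 0.09 in low arginine and 0.23 in control, against 0.12 and 0.18 over all genes tested. Control replicate 1 was the highest control for 34 members (69.4%, 40.1% of all genes) and control replicate 3 the lowest for 30 (61.2%, 37.8%). The median deviation of the members from their own mean was 0.00, 0.03 and -0.03 in low arginine replicates 1, 2 and 3 and 0.19, -0.05 and -0.19 in the controls. The low arginine arrays thus lay between control replicate 1 on one side and control replicate 3 on the other. The labels give no reason for the standing of control replicate 1, and its cause was not tested.

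**Figure D3:**
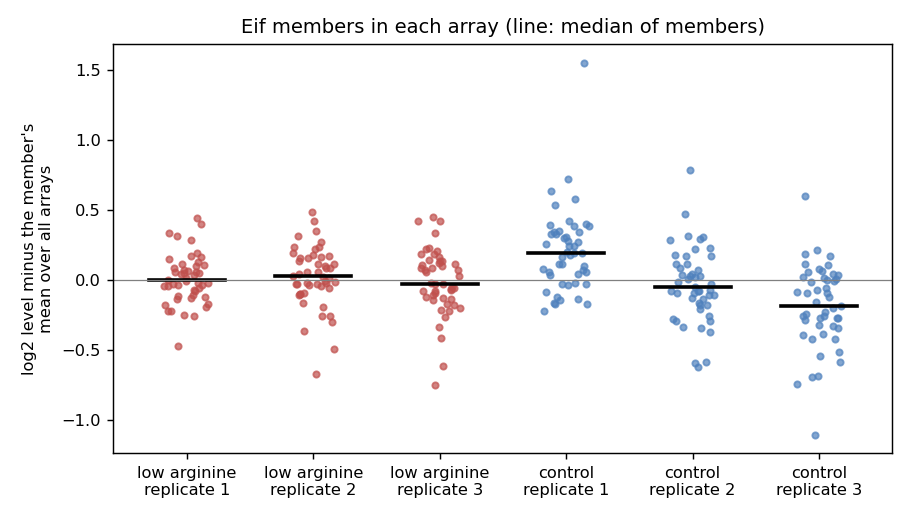
Log2 level of each member minus its mean over all arrays (vertical axis) in each array, with a black line for the median of the 49 members tested. Points of Eif2s3y, which lie outside the range, are not drawn. The low arginine medians sit between -0.03 and 0.03, and the control medians at 0.19, -0.05 and -0.19.

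Without control replicate 1 limma called 11 members in place of 5, with 8 higher and 3 lower in low arginine, while 3330 genes were called in all (1629 higher, 1701 lower). The members' share of 22.4% was near the 22.5% of all genes, with 16.3% of members higher and 6.12% lower, beside 11.0% and 11.5% of all genes. The same 5 were among them, and the 6 further members all rose. Control replicate 1 was the highest control for each of these 6, so leaving it out by itself moved their changes upward. It was the highest control for 69.4% of the members and 40.1% of all genes tested. The shares of rises in this setting are therefore not on an equal footing. Eif1ad rose by 1.29 (adjusted p = 0.00186), Eif6 by 0.90 (0.00189) and Eif3b by 0.64 (0.02). Eif4g2 rose by 0.61 (adjusted p = 0.00721), Eif5b by 0.59 (0.016) and Eif4g3 by 0.57 (0.0117). For Eif3b, Eif4g2 and Eif5b control replicate 1 lay above every low arginine array, so that their direction in the full data rests on controls 2 and 3. With array weights, which let limma count variable arrays less, 17 members passed (34.7%), 8 higher and 9 lower. This share was near the 37.3% of all genes tested (18.8% higher, 18.5% lower). The 8 were Eif1ad, Eif2b3, Eif3c, Eif4a3, Eif4g2, Eif4g3, Eif5b and Eif6. The 9 were Eif1b, Eif2a, Eif2ak2, Eif2ak3, Eif3a, Eif3h, Eif3i, Eif4b and Eif4e3. Leaving out control replicate 2 left 1 call, Eif4e3, as did leaving out low arginine replicate 2 or 3, while without low arginine replicate 1 there were 2, Eif4e3 and Eif2a. Without control replicate 3 there were 3 calls, all falls. The calls among all 14787 genes dropped as well, from 1799 with every array. They numbered 495 without control replicate 2, and 993, 507 and 592 without low arginine replicates 1, 2 and 3. Without control replicate 3 there were 1357 (578 higher, 779 lower).

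**Figure D4:**
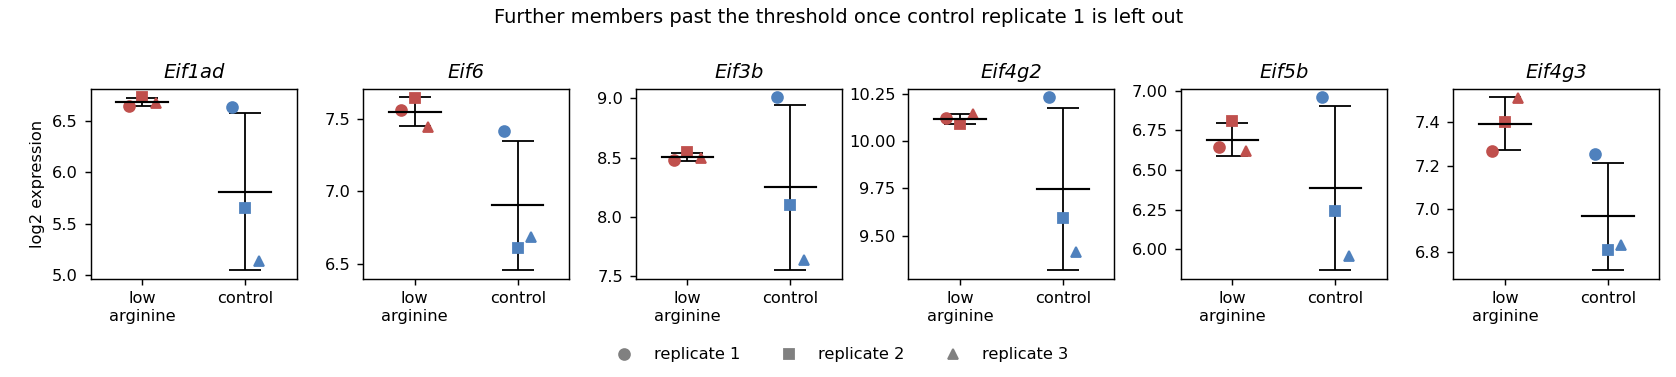
Log2 expression (vertical axis, a separate range for each gene) in each low arginine and control array of the 6 members that passed once control replicate 1 was left out, with marker shape for the replicate number and black lines for the mean ± SD over all 3 arrays. Control replicate 1 (circle) stands above the other controls in each panel.

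Other genes of translation were described by list. Of 117 tested on the lists for elongation, termination, initiation helpers, control of Eif2, hypusine, mTORC1 and ribosomal proteins, 4 rose (3.42%) and 2 fell (1.71%), against 5.19% and 6.98% of all genes tested, and the median change was 0.12. Elongation factors, which move the ribosome along the mRNA, had 0 of 8 passed by limma, 2 higher at an unadjusted p below 0.05 (13.3% of all genes tested) and a median change of 0.16. All 8 changes were positive (51.6% over all genes tested), but only 7 after quantile normalization or centring on the median and 5 with centring on the 75th percentile. Without control replicate 1 and with array weights, 2 and 3 of the 8 rose past the threshold, beside 11.0% and 18.8% of all genes tested. Eef2k, the kinase that inhibits the elongation factor Eef2, was at 5.15, 5.35 and 5.39 in low arginine and 4.26, 4.96 and 4.77 in control (change 0.64, limma adjusted p = 0.0656). All its low arginine arrays were higher than all controls.

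Among termination and recycling genes 1 of 6 rose, N6amt1, which methylates the release factor, with a change of 0.63 (limma adjusted p = 0.0271). Its call ended when any array but control replicate 1 was left out (0.0649 to 0.107). Of 19 initiation helpers 2 rose, Gigyf1, a partner of Eif4e2 in repression, by 0.44 (adjusted p = 0.0421), and Paip1, which links the poly(A)-binding protein to initiation, by 0.41 (0.042). The calls ended with arrays centred on the median (0.0599 for Gigyf1, 0.0614 for Paip1) or the 75th percentile (0.0868 and 0.092), with a trended prior (0.0693 and 0.0556), and when any array but control replicate 1 was dropped (0.0659 to 0.153). That of Gigyf1 also ended after quantile normalization (0.0705). No helper fell.

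Of 15 genes around the control of Eif2, 2 fell and 0 rose in the main limma fit. Without control replicate 1, 1 fell and 3 rose, beside 11.5% and 11.0% of all genes tested. With array weights 3 fell and 5 rose, beside 18.5% and 18.8%. Ppp1ca and Ppp1cc, catalytic subunits of the phosphatase that removes phosphate from Eif2 among many other proteins, fell by 0.56 (limma adjusted p = 0.0487) and 0.89 (0.0482). Ppp1ca was at 9.42, 9.40 and 9.29 in low arginine and 10.21, 9.86 and 9.70 in control, and Ppp1cc at 4.61, 4.43 and 3.99, against 5.35, 5.57 and 4.78 in control. Both calls ended with no filter on dim genes (adjusted p = 0.0537 and 0.0587). Dropping 1 low arginine array or control replicate 2 ended them as well (0.0713 to 0.166). The call of Ppp1cc also ended without control replicate 1 (0.0565) and with a trended prior (0.0503). The regulatory subunits that guide this phosphatase to Eif2, Ppp1r15a and Ppp1r15b, changed by 0.18 and 0.19, neither past the test. Impact, an inhibitor of signalling to Eif2, was at 6.65, 6.61 and 6.65 in low arginine and 6.40, 5.48 and 5.36 in control (change 0.89, limma adjusted p = 0.0616).

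The hypusine enzymes Dhps and Dohh changed by 0.29 and 0.30, 0 of 2 passing by limma in all arrays, with 0 also at an unadjusted p below 0.05. Both rose past the threshold without control replicate 1 and with array weights. In these settings 11.0% and 18.8% of all genes tested rose, as did 19 and 30 of the 117 genes on the lists. Of 10 genes of mTORC1 and its partners 0 passed by limma, although 5 were higher at an unadjusted p below 0.05 (13.3% of all genes tested, median change 0.21). Without control replicate 1 and with array weights, 1 and 5 of the 10 rose past the threshold. Rptor, the mTORC1 subunit that holds the Eif4ebp proteins, changed by 0.45 (limma adjusted p = 0.0739) and the activator Rheb by 0.34 (0.081). Among 57 cytosolic ribosomal protein genes tested, 1 rose and 0 fell, with a median change of 0.08. That gene, Rps20, was at 5.83, 6.22 and 6.24 in low arginine and 4.80, 5.30 and 4.89 in control, higher in every array (change 1.10, limma adjusted p = 0.00974, 0.0536 without low arginine replicate 2). With the mean of its probe sets the change was 0.64 (limma adjusted p = 0.0199). Ribosomal protein genes have many near-identical pseudogenes, and how the probes share them was not examined.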

How the data were processed

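Per the labels, total RNA was labelled with the GeneChip WT Terminal Labeling Kit. The values deposited by the authors are read as log2 expression values per probe set. The submitters' processing notes name the oligo package. Not given in the sources used here are its version, the background correction, the normalization, the summarization and the log base, which the range (0.96 to 12.41) led to be taken as 2. Between arrays, sorted values lay within 0.20 of each other. The files used here hold no detection calls. The number of arrays limits the precision.

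Of 41345 probe sets, 23521 had 1 gene symbol in the platform table, 1814 several and 16010 none. The first class gave 22180 genes, and after leaving out the dimmest share of 0.333, 14787 were tested with limma 3.58.1 in R 4.3.3 (lmFit, eBayes, group only, two-sided, Benjamini-Hochberg over all genes, threshold 0.05, 4 residual and 3.69 prior degrees of freedom). Biological replicates are as labelled, and arrays were taken as unpaired. The script was tested on simulated data.

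The members and lists were chosen with earlier results of these data known. Per-array values are given for called members, for a list of central members and for others described singly, and from the other lists the largest called changes are named. Eef2k, Impact, Rptor, Rheb, Ppp1r15a, Ppp1r15b and the members described singly outside that list were picked with values in view. List symbols were matched directly or through RefSeq synonyms. Alternatives were quantile normalization, centring on the median or the 75th percentile, other dim filters, the mean of probe sets, a trended robust prior, array weights, dropping each array in turn, and a block for the replicate number. Figures were drawn with matplotlib 3.10.9.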

Additional observations from a re-analysis of the deposited data

How the results depend on the processing

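With array weights the count of genes called was 5514 (main 1799), that of Eif members 17 (main 5) and that of the other translation lists 34 (main 6). Leaving out 1 array at a time gave 495 to 3330 genes, 1 to 11 Eif members and 0 to 21 genes of the other lists, the highest each time without control replicate 1. The median change of the Eif members ran from -0.05 to 0.13 in these settings. Over all alternatives and single members, a call was lost 18 times and gained 20 times, 696 values kept their side of the threshold, and no call turned its sign. The correlations of deviations from the group means between arrays of the same number were 0.12, 0.06 and 0.14, and every array correlated best with the one of its own number, as a hint from the data and not from the design. With the replicate number as a block, limma called 1568 genes, 6 Eif members (Eif2ak2 in addition, adjusted p = 0.0441) and 3 genes of the other lists, where N6amt1, Paip1, Gigyf1 and Ppp1ca lost the call (0.0501 to 0.0855). The block left Eif2s3y at -0.30 with an SE of 0.23 (1.16 without it, adjusted p = 0.479). Centring on the 75th percentile gave 31.0% of calls higher in low arginine, on the median 35.9%, against 42.6%. Low arginine levels of Eif2ak2, and Eif4e1b and Eif2c5 throughout, lay near the dim limit, where the size of a change is uncertain.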

Other observations

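Some Eif genes share a probe set with another symbol and were left out of the test. The brighter probe set of Eif2s3x, the X-linked gene of the gamma subunit of Eif2, shared with Gm2223, was at 4.54, 4.51 and 4.64 in low arginine and 4.91, 4.51 and 4.45 in control. The dimmer one was at 2.77, 3.03 and 2.85 in low arginine, against 3.84, 2.91 and 2.79 in control, where replicate 1 stood out. Eif4ebp3, another Eif4e repressor, shares a probe set with Ankhd1 that was at 5.95, 5.82 and 5.92 in low arginine and 5.76, 5.41 and 5.73 in control, higher in every low arginine array. A probe set of Aimp2 and Eif2ak1 differed by 0.24 between the groups and one of Eif3j2 and Eif3j1 by 0.11.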
